A study of Mus musculus with 12 samples.

Results

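The genes described here are the core of the MHC class I presentation pathway, measured in ribosome-bound RNA from enteric glia of the mouse distal colon. The list holds 10 genes: B2m, H2-K1, H2-D1, Tap1, Tap2, Tapbp, Psmb8, Psmb9, Psmb10 and Nlrc5. Each was taken as the row of the deposited FPKM table that carries its name alone and an annotated mouse transcript. No measured value decided which row was taken, but the genes were listed with earlier results of these data known. A row of its own was found for 9 of the 10 genes, among 24394 annotated gene symbols in the table, and 8 of these 9 passed the filter on low values (at least 1 FPKM in at least 3 of the 12 libraries). Nlrc5 did not pass it, and the annotated row of Tapbp is merged with the neighbouring gene Rgl2, so these 2 are described apart.

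All mice were C57BL/6 of the genotype Sox10::CreERT2+/- / Rpl22tm1.1Psam/J. In this model tamoxifen lets Cre act in cells that express Sox10, a transcription factor of glia, and those cells then carry an HA tag on a ribosomal protein, so that their ribosomes and the RNA on them can be pulled down. Every mouse received chow with 400 mg/kg tamoxifen for 2 weeks and then plain chow for 1 week. The 12 libraries fall into 4 groups of 3. DNBS_Vehicle mice received an enema of 5 mg DNBS, a hapten that causes colitis, in 50% ethanol, with daily injections of 0.1% DMSO. Saline_Vehicle mice received a saline enema with the same injections. DNBS_GR159897 mice received the DNBS enema with daily injections of 0.5 mg/kg GR159897, which blocks NK2R, a tachykinin receptor, in 0.1% DMSO, and Saline_GR159897 mice received the saline enema with the antagonist. Tissue was collected 48 h after the enema, and the injections ran over 3 days from 24 h before it. By sex label, DNBS_GR159897 had 2 female libraries and 1 male library, and each of the remaining groups had 1 female library and 2 male libraries. The labels give no ages. The saline enema is described without ethanol, so effects of DNBS and of ethanol cannot be told apart.

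MHC class I molecules show short peptides from inside the cell to CD8 T cells and, through self recognition, restrain natural killer cells. Proteasomes cut the peptides; in cells exposed to interferon, the catalytic subunits encoded by Psmb8, Psmb9 and Psmb10 replace their constitutive counterparts. The TAP transporter moves the peptides into the endoplasmic reticulum, where tapasin helps to load them onto a heavy chain paired with beta-2-microglobulin, and NLRC5 is a transcriptional coactivator of these genes.

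The libraries differed in ways that bear on the genes described. Annotated genes held 75.4 to 95.1% of the summed FPKM in the saline libraries, 53.8 to 84.0% in the DNBS_Vehicle libraries and 22.6, 56.4 and 64.5% in the DNBS_GR159897 libraries. DNBS_GR159897 replicate 1 stood apart. The 6 glial marker genes with a value in every library summed to 8.94 FPKM in it, against 132 to 610 FPKM in the other 11 libraries (Gfap, blank in Saline_Vehicle, is left out of these sums), its 8 epithelial markers to 883 FPKM, against 0.43 to 27.0 FPKM, and its 8 neuronal markers to 6.77 FPKM, against 146 to 229 FPKM. These markers go against its label as glial RNA, and the main values that rest on it are also given without it. Leaving Gfap out of the sums, and that library out of the related gene lists, was chosen after the data were seen. In DNBS_Vehicle the glial sums were 190, 462 and 264 FPKM, against 460, 279 and 561 FPKM in Saline_Vehicle, so 2 of the 3 DNBS_Vehicle libraries lay below every Saline_Vehicle library; the part of this in the values below was not tested. Smooth muscle markers summed to 1732 to 6809 FPKM in the libraries other than DNBS_GR159897 replicate 1, so RNA of other cells was present throughout. In such bulk samples, fewer cells of a type and less RNA per cell cannot be told apart.

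The promoters of the genes are shown first, because the 3 genes for the molecule at the cell surface share an arrangement of letters just before their start. Windows of 250 bases before the start were taken from RefSeq (GRCm38.p6) for the 8 members with an entry, which are all but Tap2 and Nlrc5. Capitals mark matches, on either strand, to 5 motifs: GAAA followed after any 2 bases by GAAA (interferon-stimulated response element), TTCNNNGAA (gamma-activated site), GGG, any 2 bases, TT, any 1 base and CC (NF-kB site), TGACG (core of the X2 box) and CCAAT (Y box, which reads ATTGG on the other strand). The fourth sequence is the stretch of 225 bases between the RefSeq starts of Psmb9, transcribed to the left, and Tap1, transcribed to the right. The sequences lie at chr2:122147437-122147686 on the plus strand (B2m), chr17:34000348-34000597 on the minus strand (H2-K1), chr17:35262844-35263093 on the plus strand (H2-D1) and chr17:34187331-34187555, printed on the plus strand (Psmb9-Tap1).
B2m: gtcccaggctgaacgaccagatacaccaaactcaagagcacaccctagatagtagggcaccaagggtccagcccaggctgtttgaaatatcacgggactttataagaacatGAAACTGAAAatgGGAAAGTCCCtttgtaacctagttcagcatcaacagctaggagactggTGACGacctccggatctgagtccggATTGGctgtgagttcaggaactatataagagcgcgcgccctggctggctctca
H2-K1: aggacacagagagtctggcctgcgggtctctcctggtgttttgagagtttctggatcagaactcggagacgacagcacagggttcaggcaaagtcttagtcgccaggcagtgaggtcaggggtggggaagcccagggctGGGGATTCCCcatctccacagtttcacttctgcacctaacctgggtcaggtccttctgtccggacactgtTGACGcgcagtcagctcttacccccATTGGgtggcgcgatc
H2-D1: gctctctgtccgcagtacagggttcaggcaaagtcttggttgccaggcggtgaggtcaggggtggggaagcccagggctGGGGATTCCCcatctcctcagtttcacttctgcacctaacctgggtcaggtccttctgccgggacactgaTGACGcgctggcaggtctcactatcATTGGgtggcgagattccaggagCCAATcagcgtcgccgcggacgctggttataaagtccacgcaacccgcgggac
Psmb9-Tap1: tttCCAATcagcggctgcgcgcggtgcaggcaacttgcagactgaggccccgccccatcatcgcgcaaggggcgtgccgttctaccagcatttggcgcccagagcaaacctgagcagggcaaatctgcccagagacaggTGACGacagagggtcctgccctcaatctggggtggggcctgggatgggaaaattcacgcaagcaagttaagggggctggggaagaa

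In B2m, H2-K1 and H2-D1, TGACG was followed by ATTGG at a distance of 25 bases from first letter to first letter. TGACG began 78 bases before the start in B2m, 41 in H2-K1 and 101 in H2-D1. The NF-kB letters lay 70 bases before TGACG in both H2-K1 and H2-D1, and 48 bases before it in B2m. The 25-base distance was read from these 3 genes and is a description; it was present in 18 of 32851 RefSeq windows (0.0548%), which belong to 15 genes and include H2-M3, another MHC class I heavy chain gene. Of the 8 member windows, 3 held the NF-kB letters (4.11% of all windows), 5 held TGACG (17.8%), 6 held CCAAT (33.8%), and 1 each held the letters of the response element (B2m, 2.98%) and TTCNNNGAA (Psmb8, 7.02%). Only these exact letters were searched, so a window without a match may still hold a variant of the site. The windows of Psmb9 and Tap1 overlap, and the TGACG and the CCAAT counted for each of them are the same sites. CCAAT did not overlap another motif in the sequences printed.

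The gene for the constant light chain and the genes for the classical heavy chains were the most abundant members. B2m encodes beta-2-microglobulin, the light chain of every classical MHC class I molecule (chr2:122147686-122153083, plus strand, GENCODE M21 on GRCm38). It stood at 643, 89.9 and 719 FPKM in the DNBS_Vehicle libraries, against 1864, 1330 and 1299 FPKM in the Saline_Vehicle libraries. It stood at 10.7, 92.4 and 287 FPKM in the DNBS_GR159897 libraries, against 1286, 357 and 1765 FPKM in the Saline_GR159897 libraries. Every DNBS library was lower than every saline library given the same injections, but the Saline_GR159897 library at 357 FPKM was lower than DNBS_Vehicle replicates 1 and 3.

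H2-K1 and H2-D1 encode the heavy chains K and D, which hold the peptide (chr17:33996017-34000347, minus strand, and chr17:35262730-35267499, plus strand). H2-K1 was at 240, 125 and 200.4 FPKM in DNBS_Vehicle, against 610.3, 589 and 603 FPKM in Saline_Vehicle, whose 3 libraries lay within a narrow range (601 ± 11.1 FPKM, SD, n = 3). With the antagonist it was at 15.5, 120.3 and 119.7 FPKM in DNBS_GR159897, against 451, 199 and 716 FPKM in Saline_GR159897. In both arms the DNBS libraries were below the saline libraries without overlap.

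H2-D1 was at 1831, 572 and 1307 FPKM in DNBS_Vehicle, against 2534, 3587 and 2629 FPKM in Saline_Vehicle. In DNBS_GR159897 it was at 51.3, 838 and 769.9 FPKM, against 2254, 1230.3 and 2690 FPKM in Saline_GR159897. Among annotated genes ordered by FPKM, H2-D1 ranked 6, 30 and 15 in the DNBS_Vehicle libraries against 4, 2 and 5 in the Saline_Vehicle libraries, and 286, 13 and 30 in DNBS_GR159897 against 4, 5 and 4 in Saline_GR159897. It was thus among the 5 most abundant annotated genes of every saline library. Of all 50-base stretches of the longest annotated coding transcript, 14.32% in H2-D1 and 8.79% in H2-K1 also occur in other genes (5.31% of those of H2-D1 in H2-K1, and 6.94% the other way), so reads could be split between them and their levels are uncertain to that extent. B2m, Psmb8, Psmb9, Psmb10 and Nlrc5 shared none.

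**Figure D1:**
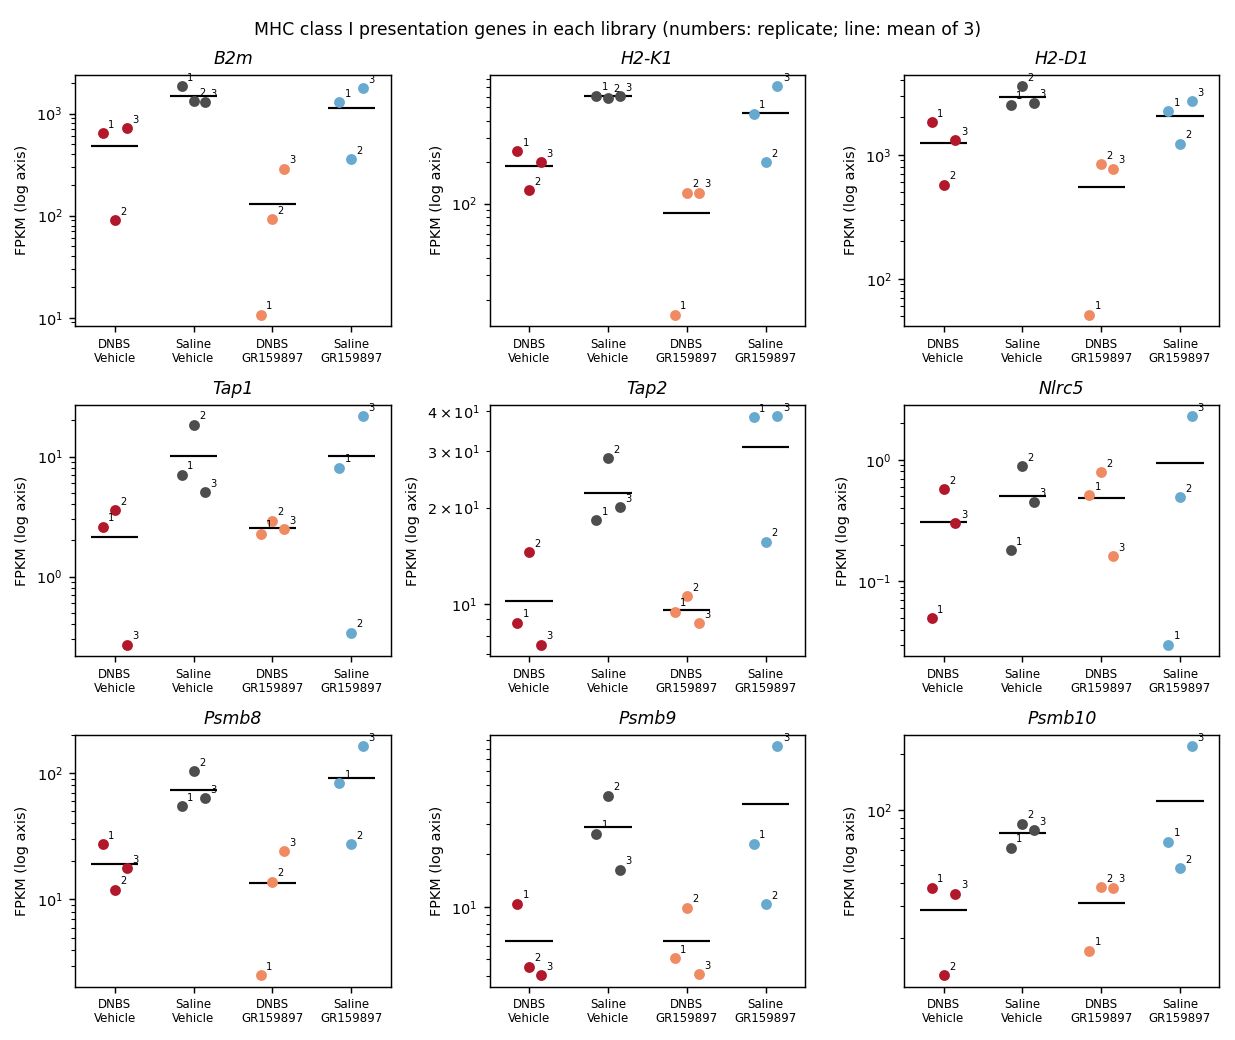
FPKM of each member in every library, on a log axis, with 1 point for each library labelled by its replicate number and a line for the mean of 3. In DNBS_Vehicle all 8 tested members lay below every Saline_Vehicle library (14.9% of all genes did), while Saline_GR159897 replicate 2 was the lowest saline library for each of these 8.

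The transporter genes were expressed at a much lower level. Tap1 and Tap2 encode the pair of chains that form the peptide transporter and lie close together on chromosome 17 (chr17:34187553-34197225 and chr17:34203527-34216321, both plus strand). Tap2 was at 8.77, 14.6 and 7.48 FPKM in DNBS_Vehicle, against 18.2, 28.5 and 20.04 FPKM in Saline_Vehicle, and at 9.49, 10.6 and 8.73 FPKM in DNBS_GR159897, against 38.1, 15.7 and 38.5 FPKM in Saline_GR159897. All 6 DNBS libraries were below all 6 saline libraries for Tap2, with a highest DNBS value of 14.6 FPKM and a lowest saline value of 15.7 FPKM.

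Tap1 was at 2.60, 3.58 and 0.27 FPKM in DNBS_Vehicle, against 7.03, 18.4 and 5.06 FPKM in Saline_Vehicle. In DNBS_GR159897 it was at 2.28, 2.92 and 2.49 FPKM, against 8.04, 0.34 and 21.7 FPKM in Saline_GR159897. The DNBS and saline libraries overlapped in the antagonist arm, where Saline_GR159897 replicate 2 was below all 3 DNBS libraries. Exons of Tap1 and Psmb9 overlap on opposite strands, and the kit and counting are not stated to use strand, so reads from the overlap cannot be assigned to one of them. Exons of Tap2 (Gm15821 and Gm20496), Psmb8 (Gm20496) and Nlrc5 (9330175E14Rik) also overlap genes on the opposite strand, and the same limit holds for them.

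The immunoproteasome genes were also lower in the DNBS libraries of each arm. Psmb8, which encodes the subunit that replaces the constitutive one of Psmb5 (chr17:34197721-34201454, plus strand), was at 27.5, 12.0 and 17.8 FPKM in DNBS_Vehicle, against 54.6, 103 and 63.5 FPKM in Saline_Vehicle. In DNBS_GR159897 it was at 2.52, 13.9 and 24.1 FPKM, against 83.4, 27.4 and 163 FPKM in Saline_GR159897. The DNBS libraries were lower in each arm without overlap, by a narrow margin in the antagonist arm.

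Psmb9 replaces Psmb6 (chr17:34181987-34187764, minus strand). It was at 10.4, 4.54 and 4.07 FPKM in DNBS_Vehicle, against 26.2, 43.4 and 16.3 FPKM in Saline_Vehicle. It was at 5.09, 9.89 and 4.12 FPKM in DNBS_GR159897, against 23, 10.4 and 83.0 FPKM in Saline_GR159897. Again no DNBS library reached a saline library of its own arm, and Saline_GR159897 replicate 2 was the nearest to the DNBS values.

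Psmb10 replaces Psmb7 and lies away from the MHC region, on chromosome 8 (chr8:105935735-105938444, minus strand). It was at 37.6, 12.6 and 34.9 FPKM in DNBS_Vehicle, against 62.0, 84.0 and 77.5 FPKM in Saline_Vehicle. It was at 17.1, 37.9 and 37.6 FPKM in DNBS_GR159897, against 66.9, 48.2 and 221 FPKM in Saline_GR159897. As for Tap2, all 6 DNBS libraries lay below all 6 saline libraries.

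Set against the constitutive subunit in the same library, the immunoproteasome share was lower with DNBS in the vehicle arm for all 3 pairs. Psmb8 over Psmb5, as a ratio of FPKM, was 0.153, 0.166 and 0.103 in DNBS_Vehicle, against 0.407, 0.857 and 0.469 in Saline_Vehicle. Psmb9 over Psmb6 was 0.036, 0.0373 and 0.009, against 0.0871, 0.239 and 0.081, and Psmb10 over Psmb7 was 0.828, 0.732 and 0.643, against 1.78, 2.40 and 2.34, in the same 2 groups. None of these 3 ratios overlapped between DNBS_Vehicle and Saline_Vehicle. How often ratios of other gene pairs do so was not measured. Of all genes taken singly, 14.9% were lower without overlap in this comparison, the 3 numerators among them.

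In the antagonist arm only the first of the 3 ratios separated the groups: Psmb8 over Psmb5 was 0.126, 0.121 and 0.148 in DNBS_GR159897, against 0.693, 0.262 and 1.05 in Saline_GR159897. Psmb9 over Psmb6 was 0.312, 0.083 and 0.0154 in DNBS_GR159897, against 0.113, 0.0658 and 0.295 in Saline_GR159897. Psmb10 over Psmb7 was 5.97, 2.49 and 0.933 in DNBS_GR159897, against 1.57, 2.26 and 7 in Saline_GR159897. The highest DNBS_GR159897 value of these last 2 ratios was in replicate 1, the library with few glial transcripts, where Psmb6 was at 16.3 FPKM and Psmb7 at 2.86 FPKM. The ratios were not tested, and no difference between the arms is drawn from them.

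**Figure D2:**
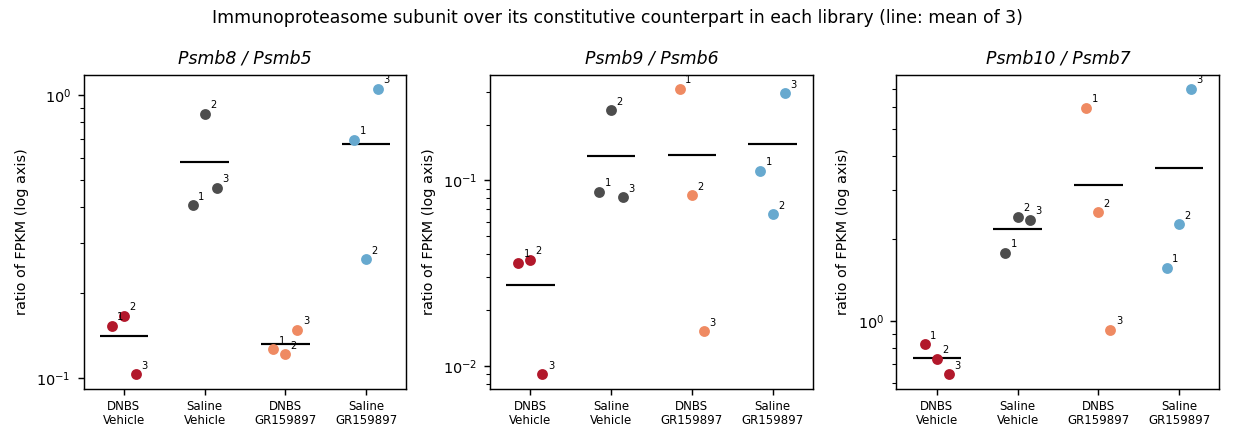
Ratio of the FPKM of each immunoproteasome subunit to that of its constitutive counterpart, on a log axis, for every library (number: replicate; line: mean of 3). Psmb8 over Psmb5 lay between 0.103 and 0.166 in all 6 DNBS libraries and between 0.262 and 1.05 in all 6 saline libraries, while the other 2 ratios overlapped in the antagonist arm.

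The last 2 members gave little to measure. Nlrc5, the coactivator (chr8:94434356-94527272, plus strand), was at 0.05, 0.57 and 0.30 FPKM in DNBS_Vehicle, against 0.18, 0.88 and 0.45 FPKM in Saline_Vehicle, and at 0.51, 0.79 and 0.16 FPKM in DNBS_GR159897, against 0.03, 0.49 and 2.28 FPKM in Saline_GR159897. Its groups overlapped throughout, and in a fit without the filter its change with DNBS over both arms was -0.21 ± 0.28 (SE, limma adjusted p = 0.682). The row that holds tapasin, the loading chaperone, together with Rgl2 was at 4.01, 17.0 and 5.44 FPKM in DNBS_Vehicle, against 10.2, 13.4 and 17.7 FPKM in Saline_Vehicle, and at 4.19, 2.48 and 10.1 FPKM in DNBS_GR159897, against 30.6, 8.25 and 21.1 FPKM in Saline_GR159897. These groups overlapped too, the merged Tapbp;Rgl2 row did not pass the test over both arms (-1.23 ± 0.43, limma adjusted p = 0.0886), and it cannot be split between the 2 genes.

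The first question of the design is what DNBS changed. Tests were made on log2(FPKM + 1) with limma across all genes that passed the filter, with Benjamini-Hochberg adjustment over all of them and a threshold of 0.05. A change is a log2 difference on that scale, which understates the change of genes with low FPKM. The table gives no read counts, so the depth behind each value is unknown. The labels do not say how many animals stand behind a library, so the p-values measure the spread between these libraries.

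In the vehicle arm, DNBS_Vehicle against Saline_Vehicle, no tested member passed the threshold (0 of 8, limma), where 0.321% of 12777 genes passed in either direction. All 8 were lower (56.9% of all genes tested), 6 of them at an unadjusted p under 0.05 (7.75% of all genes), and all 8 had DNBS libraries below the saline libraries without overlap (14.9% of all genes). The changes ranged from -2.09 ± 1.12 for B2m (SE, adjusted p = 0.476) to -1.07 ± 0.45 for Tap2 (adjusted p = 0.348). Psmb9 had the lowest adjusted p of the 8, 0.243, with a change of -2.01 ± 0.67. The median change of the members was -1.77, against -0.11 over all genes, and 2.39% of all genes had a change at or below that of the members' median.

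In the antagonist arm, DNBS_GR159897 against Saline_GR159897, again no tested member passed (0 of 8, limma; 1.38% of 12778 genes passed in either direction). All 8 were lower (62.4% of all genes), 7 of them at an unadjusted p under 0.05 (16.9% of all genes), and 7 of the 8 did not overlap (17.6% of all genes), the exception in both being Tap1. The adjusted p was lowest for Psmb8 (change -2.74 ± 0.76, adjusted p = 0.0783), H2-K1 (-2.69 ± 0.78, adjusted p = 0.0839) and B2m (-3.78 ± 1.12, adjusted p = 0.0904). When DNBS_GR159897 replicate 1 was left out these were -1.92 for Psmb8 (adjusted p = 0.171), -1.73 for H2-K1 (adjusted p = 0.117) and -2.51 for B2m (adjusted p = 0.205), and H2-D1 was -1.28 without that library (adjusted p = 0.223), against -2.60 with it (adjusted p = 0.147). The median change of the members was -2.31, against -0.27 over all genes, and 2.61% of all genes had a change at or below it. Without DNBS_GR159897 replicate 1 the median was -1.60 and the count that passed was still 0. Leaving out DNBS_GR159897 replicate 3 let 3 members pass, where 604 of all 12778 genes passed, against 176 with that library.

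Averaged over both arms, DNBS against saline, 6 of the 8 tested members fell, where 6.83% of 12777 genes passed the threshold in that direction. The changes with their SE were -2.33 ± 0.54 for Psmb8 (limma adjusted p = 0.0236), -2.02 ± 0.48 for Psmb9 (adjusted p = 0.0251), -2.20 ± 0.55 for H2-K1 (adjusted p = 0.0291), -1.28 ± 0.32 for Tap2 (adjusted p = 0.0295), -2.93 ± 0.79 for B2m (adjusted p = 0.0389) and -1.54 ± 0.45 for Psmb10 (adjusted p = 0.0484). H2-D1 had a change of -1.99 ± 0.69 (adjusted p = 0.0851) and Tap1 of -1.35 ± 0.60 (adjusted p = 0.161), and neither passed, though all 8 were lower at an unadjusted p under 0.05 (20% of all genes, with 61.2% lower whatever their p). The 6 that passed include the light chain, the K heavy chain, the Tap2 chain of the transporter and all 3 immunoproteasome subunits. Their median with the other 2 was -2.00, against -0.18 over all genes, and 1.82% of all genes had a change at or below it. Only Tap2 and Psmb10 had all 6 DNBS libraries below all 6 saline libraries (2 of 8, against 4.29% of all genes).

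The number that passed over both arms rested on single libraries, while the direction did not. All 8 tested members were lower with DNBS in each of the 12 fits that left out 1 library, and their median change ran from -2.25 to -1.54. The count that passed was 1, 0 and 1 without Saline_Vehicle replicates 1, 2 and 3, and 0 and 1 without Saline_GR159897 replicates 1 and 3. It was 2 and 3 without DNBS_Vehicle replicates 1 and 2, and 4 to 7 without any 1 of the remaining 5 libraries. It was 6 without DNBS_GR159897 replicate 1, of which 5 were among the original 6: H2-D1 passed there (-1.33, adjusted p = 0.0314) and Psmb10 did not (-1.36, adjusted p = 0.0602). Of those 5, B2m was -2.30 (limma adjusted p = 0.0409), H2-K1 -1.73 (adjusted p = 0.0102) and Tap2 -1.27 (adjusted p = 0.0277) in that fit. Psmb8 was -1.92 (adjusted p = 0.0208) and Psmb9 -1.97 (adjusted p = 0.0335), while Tap1 did not pass (-1.32, adjusted p = 0.237). With no filter on low values, where 24309 genes were tested, none of the 8 passed, and 442 of all genes did. The count over all genes moved as well, from 1226 of 12777 in the main fit. Where leaving out 1 library let 0 or 1 member pass, 397 to 667 genes passed. It was 664 and 838 genes without DNBS_Vehicle replicates 1 and 2, and 933 to 1655 without any 1 of the remaining 5 libraries.

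**Figure D3:**
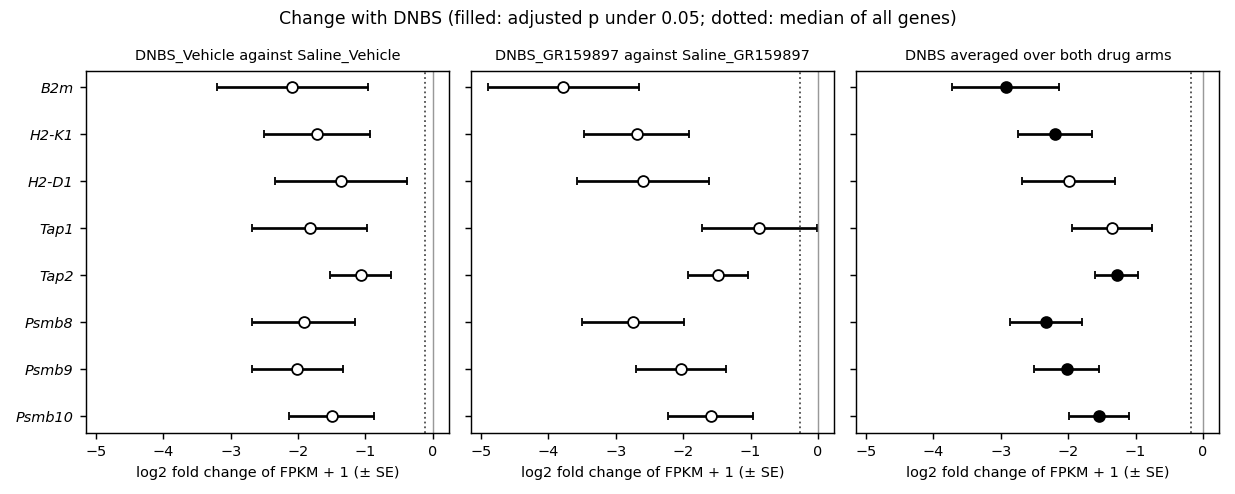
Change of each tested member on the log2(FPKM + 1) scale with its SE, for DNBS in the vehicle arm, in the antagonist arm and averaged over both (filled points: adjusted p under 0.05; dotted line: median of all genes tested). All 24 points lie left of the median of all genes, and the 6 filled ones are in the averaged comparison.

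The second question is what the antagonist changed. In saline-treated mice, Saline_GR159897 against Saline_Vehicle, no member passed and none had an unadjusted p under 0.05 (0 of 8 in limma). Over all 12777 genes 0% passed, and 1.04% were lower and 0.65% higher at that unadjusted p. Changes ran from -0.66 ± 1.12 for B2m to 0.37 ± 0.45 for Tap2, with 4 members lower (53.4% of all genes were) and 4 higher. The libraries of all 8 overlapped, whereas 4.18% of all genes were lower and 3.04% higher without overlap. Saline_GR159897 had the largest SD of FPKM of the 4 groups for all 8 tested members: its replicate 2 was the lowest of the 6 saline libraries for all 8 tested members and its replicate 3 the highest for 6 of them. The 8 tested members made up 1.63, 0.813 and 2.33% of the annotated FPKM in Saline_GR159897, against 2.18, 2.40 and 1.82% in Saline_Vehicle. The glial marker sum of Saline_GR159897 replicate 2 was 509 FPKM and its epithelial sum 2.52 FPKM, both inside the range of the saline libraries. Its sums of endothelial and lymphatic endothelial markers, 11.7 and 18.4 FPKM, were the highest of the saline libraries, against at most 6.53 and 7.14 FPKM in the other 5, and their part in its low values was not tested. Without that library the median change of the members was 0.63, against -0.27 with it.

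In DNBS-treated mice, DNBS_GR159897 against DNBS_Vehicle, no member passed and none had an unadjusted p under 0.05 (0 of 8 in limma). Over all 12778 genes 0% passed, and 5.69% were lower and 2.44% higher at that unadjusted p. Of the members, 5 were lower (62.7% of all genes). The members at the cell surface had the lowest values: B2m -2.35 ± 1.12 (adjusted p = 0.617), H2-D1 -1.78 ± 0.98 (adjusted p = 0.618) and H2-K1 -1.55 ± 0.78 (adjusted p = 0.618). With DNBS_GR159897 replicate 1 left out they were -1.08 for B2m, -0.47 for H2-D1 and -0.59 for H2-K1 (limma adjusted p = 1 for each). H2-K1 was the 1 member of 8 without overlap, with a highest DNBS_GR159897 value of 120.3 FPKM against a lowest DNBS_Vehicle value of 125 FPKM (6.89% of all genes were lower without overlap). Psmb8 had a change of -0.80 ± 0.76, and of 0.02 without that library, and Tap1, Tap2, Psmb9 and Psmb10 lay between -0.04 and 0.37. The median of the members was -0.42, against -0.21 over all genes, and -0.01 without DNBS_GR159897 replicate 1. The 8 members made up 0.103, 0.567 and 0.489% of the annotated FPKM in DNBS_GR159897, against 1.07, 0.386 and 0.832% in DNBS_Vehicle. The lowest of these shares was that of DNBS_GR159897 replicate 1, the library with the glial sum of 8.94 FPKM.

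Whether DNBS acted differently with the antagonist was tested as an interaction. No member passed and none had an unadjusted p under 0.05 (0 of 8 in limma). Over all 12777 genes 0% passed, and 2.45% had negative and 1.13% positive values at that unadjusted p. Of the members, 7 had negative values (59.6% of all genes), and 4 did without DNBS_GR159897 replicate 1 and 4 with scaling to the annotated total. Values ran from -1.69 ± 1.59 for B2m to 0.96 ± 1.2 for Tap1, with adjusted p-values of 0.957 or more. With that library left out the value was -0.42 for B2m, 0.09 for H2-D1 and -0.01 for H2-K1, and the median of the members was 0.04, against -0.62 with that library. These standard errors leave room for sizeable differences between the arms in either direction. The comparisons above share groups with one another, so their values for a gene are not independent.

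The rest of the pathway was read from lists of related genes, and its counts below refer to DNBS averaged over both arms unless another comparison is named. Over all genes in that comparison 61.2% were lower, 20% were lower at an unadjusted p under 0.05 and 6.83% fell. Of 9 tested genes for nonclassical or MHC class I-like heavy chains, 8 were lower and 5 fell, with a median of -1.90. H2-M3, which presents formylated peptides, fell by 2.38 ± 0.49 (adjusted p = 0.0148); it was at 4.38, 2.96 and 15.5 FPKM in DNBS_Vehicle, against 42.2, 26.9 and 25.8 FPKM in Saline_Vehicle. H2-T23, the Qa-1 chain read by natural killer cell receptors, fell by 2.23 ± 0.51 (adjusted p = 0.0214). H2-Q1 (-2.08, adjusted p = 0.0324), the iron regulator Hfe (-1.90, adjusted p = 0.0104) and the neonatal Fc receptor heavy chain Fcgrt (-2.08, adjusted p = 0.0267) passed as well. H2-Q1 shares sequence with H2-D1 and H2-K1, and H2-T23 shares sequence with H2-K1, so their levels are not fully separate from those of these members. The same 5 genes fell without DNBS_GR159897 replicate 1, where the median was -1.76.

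Genes of peptide loading and trimming in the endoplasmic reticulum were lower in 9 of 10 cases, with a median of -0.76, and 1 fell. That gene was Tapbpl, which encodes the tapasin-related peptide editor TAPBPR (-1.80 ± 0.42, adjusted p = 0.0245). Calreticulin (Calr, -0.96, adjusted p = 0.186) and calnexin (Canx, -0.72, adjusted p = 0.348), chaperones of the heavy chain, did not pass. The disulfide isomerase Pdia3 had a change of -1.33 ± 0.41 (adjusted p = 0.0562) and the trimming peptidase Erap1 of -0.97 ± 0.35 (adjusted p = 0.0943). Pdia3 passed too without DNBS_GR159897 replicate 1 (-1.12, adjusted p = 0.0479).

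The constitutive proteasome stood near no change in the vehicle arm. Of its 15 genes, 7 were lower and 8 higher in DNBS_Vehicle against Saline_Vehicle, with a median of 0.01, and over both arms 14 were lower with a median of -0.43, or 8 with a median of -0.02 without DNBS_GR159897 replicate 1; none passed in either, and none had an unadjusted p under 0.05 (0 of 15 in limma). The catalytic subunits replaced in the immunoproteasome had changes over both arms of -0.38 (Psmb5, adjusted p = 0.654), -0.58 (Psmb6, adjusted p = 0.567) and -0.59 (Psmb7, adjusted p = 0.485). The largest changes of the list were those of Psmb2 (-1.31, adjusted p = 0.223), Psma2 (-1.08, adjusted p = 0.306) and Psma6 (-0.68, adjusted p = 0.469). Of 4 proteasome activator genes none passed (2 at an unadjusted p under 0.05, limma); Psme1 had a change of -1.13 ± 0.40 (adjusted p = 0.0889), Psme2 of -0.96 ± 0.44 (adjusted p = 0.171) and Psme4 of 0.61 ± 0.32 (adjusted p = 0.23).

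Among 13 tested genes for transcription factors of MHC class I promoters, 9 were lower, none passed (1 at an unadjusted p under 0.05, limma) and the median was -0.23, near that of all genes (-0.18). With DNBS_GR159897 replicate 1 left out, 7 were lower and the median was -0.07. The lowest p in this list was that of Irf1, an interferon-induced activator, with a change of -0.90 ± 0.38 (adjusted p = 0.138). Stat3 (0.71, adjusted p = 0.33) and Atf1 (-0.67, adjusted p = 0.239) had the next largest changes, and Rfx5, a subunit of the factor that binds the X box, had a change of -0.23 (adjusted p = 0.687). Ciita, the coactivator of MHC class II genes and a relative of Nlrc5, did not pass the filter; it was at 0 to 0.03 FPKM in the 6 DNBS libraries (listed at 0 in all 3 of DNBS_Vehicle), against 0.03 to 2.94 FPKM in the 6 saline libraries.

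Of 19 tested interferon-stimulated genes, 18 were lower with DNBS and 6 fell, with a median of -1.32. Those that fell were Gbp2 (-3.13, adjusted p = 0.0209), Iigp1 (-2.43, adjusted p = 0.0431), Gbp3 (-2.40, adjusted p = 0.00995), Oasl2 (-1.90, adjusted p = 0.00905), Xaf1 (-1.73, adjusted p = 0.0431) and Irf7 (-1.29, adjusted p = 0.00798). Gbp2, a guanylate-binding protein gene, was at 8.89, 14.9 and 3.5 FPKM in DNBS_Vehicle, against 35, 98.3 and 23.8 FPKM in Saline_Vehicle, without overlap. Without DNBS_GR159897 replicate 1, 5 of the 6 passed, the exception being Iigp1 (-2.35, adjusted p = 0.0801), and Ifitm1 was higher (1.55, adjusted p = 0.0356). In that fit the median of the interferon-stimulated genes was -1.20. Of 10 genes for interferon receptors, kinases and inhibitors, 7 were lower and 3 higher, with a median of -0.23, near that of all genes, and 2 fell: Ifngr1, a chain of the interferon gamma receptor (-1.43 ± 0.41, adjusted p = 0.0478, and 0.0605 without DNBS_GR159897 replicate 1), and Usp18, a brake on type I interferon signalling (-1.83 ± 0.39, adjusted p = 0.0166). Ptpn2, a phosphatase that limits this signalling, had a change of 0.53 (adjusted p = 0.253). MHC class II genes, which professional presenting cells use, were lower in 4 of 4 cases with a median of -2.07, and H2-Aa fell by 2.35 ± 0.53 (adjusted p = 0.0216). H2-Ab1 had a change of -2.57 (adjusted p = 0.0839) and H2-Eb1 of -1.79 (adjusted p = 0.212). The MHC class II median was -1.96 without DNBS_GR159897 replicate 1, where H2-Aa still passed (-2.42, limma adjusted p = 0.0282).

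**Figure D4:**
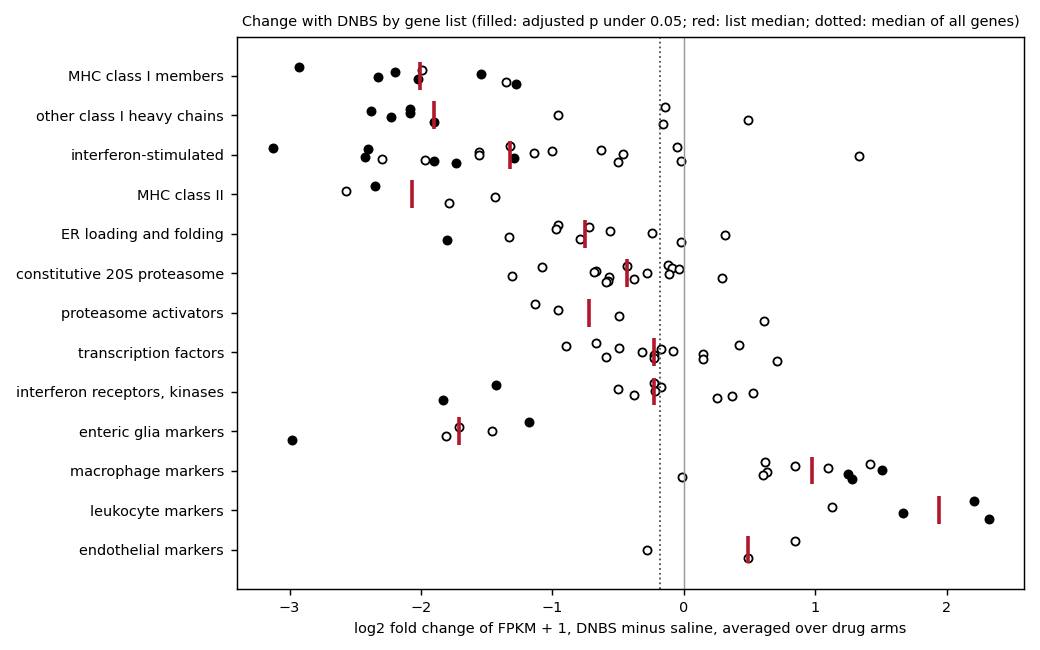
Change with DNBS on the log2(FPKM + 1) scale, for each tested gene of the members and of the related lists (1 point a gene, filled where the adjusted p is under 0.05). Members, other heavy chains and interferon-stimulated genes lie mostly left of 0 (8 of 8, 8 of 9 and 18 of 19 lower over both arms). So does the constitutive proteasome (14 of 15 lower), but nearer to 0 (median -0.43, against -2.00, -1.90 and -1.32). Of all genes, 61.2% were lower.

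Leukocyte markers moved in the opposite direction to the members. Over both arms, 38.8% of all genes were higher and 2.76% rose. Of 10 tested macrophage markers 9 were higher and 3 rose (Cd68 1.25, C1qc 1.51, Mrc1 1.28), with sums of 48.0 to 270 FPKM in the 6 DNBS libraries against 49.6 to 118 FPKM in the 6 saline libraries. All 3 tested neutrophil markers rose (S100a8 4.72, S100a9 4.77, Retnlg 3.75), with sums of 9.20 to 574 FPKM against 0.34 to 12.1 FPKM. Of 4 tested general leukocyte markers 3 rose (Lcp1 2.32, Cd52 2.21, Laptm5 1.67), with sums of 8.59 to 75.7 FPKM against 3.29 to 6.21 FPKM. Of 14 genes of the T and natural killer cells that read MHC class I, 6 have a row and none passed the filter, with Cd3e, a chain of the T cell receptor complex, at most at 0.09 FPKM. Glial markers were lower in 5 of 5 tested cases over both arms with a median of -1.71, and Sox10 (-2.98, adjusted p = 0.0374) and Erbb3 (-1.18, adjusted p = 0.0388) fell. Without DNBS_GR159897 replicate 1 the glial median was -1.02, and Erbb3 passed (-1.07, adjusted p = 0.0411) but Sox10 did not (-2.72, adjusted p = 0.0854). In the same fit S100a9 (4.31, adjusted p = 0.0734), Retnlg (3.39, adjusted p = 0.0519) and Cd52 (2.12, adjusted p = 0.0644) no longer passed. In the vehicle arm none of the 5 glial markers passed (0 at an unadjusted p under 0.05, limma) and their median was -0.69. In the remaining marker lists over both arms none passed, with medians of 1.21 for epithelium, 0.70 for lymphatic endothelium, 0.49 for endothelium, 0.42 for fibroblasts, -0.31 for interstitial cells of Cajal, -0.41 for smooth muscle, -0.46 for neurons and -0.48 for mesothelium. At an unadjusted p under 0.05 there was 1 gene each in the lists of endothelium, fibroblasts, interstitial cells of Cajal, neurons and mesothelium. Without DNBS_GR159897 replicate 1 the epithelial median was 0.03, that of smooth muscle 0.08, that of neurons -0.20, and Etv1, a marker of interstitial cells of Cajal, was lower (-0.90, adjusted p = 0.0335). The part of these marker changes in the values of the members was not tested.

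Among 5758 genes with a mean of at least 5 FPKM, those most like the 8 members across the 12 libraries, by correlation of log2(FPKM + 1) with the mean of the members' standardised values, were Xaf1, Pla2g16, Nmi, Tbc1d10a and Psme2, with Pearson's r of 0.944, 0.933, 0.933, 0.924 and 0.92. The libraries share their groups and their composition, so these are descriptions with no test. Xaf1 was at 12.1, 6.07 and 6.06 FPKM in DNBS_Vehicle, against 16.8, 26.1 and 16.7 FPKM in Saline_Vehicle, and at 0.40, 10.5 and 6.19 FPKM in DNBS_GR159897, against 22.8, 12.3 and 35.9 FPKM in Saline_GR159897. Like all 8 tested members it had its lowest saline value in Saline_GR159897 replicate 2, and like 4 of them its lowest DNBS value in DNBS_GR159897 replicate 1. After the group means were taken away, the 28 pairs of tested members had a median r of 0.612, within a range of -0.013 to 0.956. Pairs of other genes were not compared, so this cannot be read as particular to the members. DNBS_GR159897 replicate 1 enters every pair, and its part was not tested.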

How the data were processed

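Ribosome-bound RNA was pulled down by its HA tag from distal colon myenteric plexus, and per the labels' protocols 1 ng was amplified with SMART-seq v4, made into Nextera libraries and sequenced paired-end on an Illumina HiSeq. The authors deposited 1 table of FPKM values (fragments scaled by transcript length and by mapped fragments) for 99547 assembled loci and 12 libraries, per the file headers. Tools listed in the submitters' processing notes are HISAT2 2.0, StringTie 1.3, FastQC 0.10.1 and cutadapt 1.10; their order, the genome build and the annotation are not given in the sources used here. Only the 24394 symbols with an annotated transcript were used, and a locus that merges several genes (902 in the table) was not counted for any of them. Gene positions are those of GENCODE M21 on GRCm38, matched by name. FPKM gives no depth.

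Tests used limma 3.58.1 in R 4.3.3 (trend and robust) on log2(FPKM + 1) over all 12 libraries, with group as the factor and 8 residual degrees of freedom, after a filter of at least 1 FPKM in at least 3 libraries. That left 12778 genes, or 12777 where a comparison needs Saline_Vehicle, in which Gfap is blank. The fit was run on simulated data with independent normal noise for each gene and known changes added to DNBS_Vehicle. Those data held no library that stood apart and no genes with shared noise, so the run does not cover these features. Python 3.11.15 with pandas 2.3.3 and matplotlib 3.10.9 was used for counts and figures.

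Alternatives were another pseudocount, no filter, 2 rescalings, a replicate block, a sex term, library weights, a fit of only the groups compared, and leaving out each library. Members and lists were chosen with earlier results of these data known. All members are named; a gene of a related pathway list is named where it passed in the DNBS comparisons, was among the 3 largest changes of its list over both arms, or is in a fixed set of partners of the members (which includes Psmb5, Psmb6, Psmb7, Calr, Canx, Pdia3, Psme1, Psme2, Erap1, Irf1, Rfx5, Ciita, Ifngr1, Cd3e). Marker genes named are those that passed with or without DNBS_GR159897 replicate 1; Ifitm1 and Etv1 were named after their values in the fit without it were seen.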

Additional observations from a re-analysis of the deposited data

How the results depend on the processing

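In DNBS averaged over both arms, all 8 tested members were lower under every alternative run. The number that passed was 6, and 0 with no filter; it was 4 with a pseudocount of 0.1, with centring on the median and with a sex term, 5 with scaling to the annotated total, 7 with library weights, and 0 to 7 when 1 library was left out. In DNBS_GR159897 against Saline_GR159897 it was 0, but 6 with library weights, and 0 to 3 when 1 library was left out. With weights 2154 of all 12778 genes passed there, against 176 in the main fit. In the averaged comparison 3009 of 12777 passed with weights, against 1226. The cause of these shifts was not tested. The median of all genes in the averaged comparison was -0.18, and 0.06 with centring; relative to it, the members' median was -1.82 in both and -1.75 with scaling. In DNBS_Vehicle against Saline_Vehicle no member passed in any fit (0 of 8). The members' median ran from -1.97 to -1.39 there, and from -0.76 to 0.63 in Saline_GR159897 against Saline_Vehicle, when 1 library was left out. In the interaction it ran from -1.15 to 0.04.

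Changes near 0 turned. In DNBS_GR159897 against DNBS_Vehicle, Tap2 was 0.41 with scaling to the annotated total, 0.26 with centring and 0.18 with weights, and Psmb9 was -0.23 and Psmb10 -0.02 with a sex term. In the interaction, Psmb9 was 0.0 with a pseudocount of 0.1, 0.41 with scaling and 0.25 with centring, Tap2 was 0.04 with scaling, and Psmb10 was 0.37 with scaling and 0.17 with centring. When 1 library was left out, Tap1 ran from -2.01 to 0.03 in DNBS_GR159897 against Saline_GR159897. In Saline_GR159897 against Saline_Vehicle, B2m ran from -1.12 to 0.03, Tap1 from -1.49 to 0.55, Psmb8 from -0.56 to 0.71, Psmb9 from -0.74 to 0.71 and Psmb10 from -0.38 to 0.71. In DNBS_GR159897 against DNBS_Vehicle, Tap1 ran from -0.19 to 0.73, Tap2 from -0.22 to 0.22, Psmb8 from -1.40 to 0.02, Psmb9 from -0.29 to 0.40 and Psmb10 from -0.31 to 0.54. In the interaction, H2-D1 ran from -1.91 to 0.09, Tap1 from -0.18 to 1.86, Psmb9 from -0.68 to 0.76 and Psmb10 from -0.58 to 0.55.

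Over 18 pairs of same-numbered libraries the correlation of deviations from the group means was -0.088 to 0.202 (median 0.016), and over 0.1 in 2. Over 36 differently numbered pairs it was -0.265 to 0.223 (median 0), and over 0.1 in 3. The labels do not say what a replicate number shares, and these correlations cannot show that such libraries shared nothing. With a replicate block, 5 members passed in the averaged comparison and 0 in DNBS_Vehicle against Saline_Vehicle. Counts over all genes moved more. In DNBS_Vehicle against Saline_Vehicle 41 genes passed, and 13 with no filter, 18 with the block, 24 with a sex term, 21 with the other pseudocount, 110 in a fit of only the 2 groups and 514 with weights. In DNBS_GR159897 against Saline_GR159897 176 passed, and 18, 31, 25, 42, 9 and 2154 under the same alternatives, and 91 and 103 under scaling and centring. In the averaged comparison 1226 passed, and 442 with no filter, 805 with a sex term and 3009 with weights. What depth limits cannot be given from FPKM, and the 3 libraries a group limit the precision of every change.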

Other observations

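The table also holds 4 assembled loci that are named for a member but carry no annotated transcript, and they were not counted among the members. Only the locus named for Gm18734 and H2-D1 passed the filter on low values, and it followed a similar order of libraries. The Gm18734;H2-D1 locus was at 1.31, 0.75 and 1.32 FPKM in DNBS_Vehicle, against 141, 172 and 12.3 FPKM in Saline_Vehicle. It was listed at 0 in DNBS_GR159897 replicate 1 and was at 1.69 and 1.17 FPKM in replicates 2 and 3, against 62.4, 1.86 and 43.2 FPKM in Saline_GR159897. All 6 DNBS libraries were below all 6 saline libraries, and Saline_GR159897 replicate 2 was again the lowest saline library. How often other loci without an annotated transcript do so was not measured. How much of the Gm18734;H2-D1 locus is H2-D1 sequence is not given in the table. A locus named for Tapbp did not follow this order in the vehicle arm. It was at 0, 5.39 and 0.25 FPKM in DNBS_Vehicle, against 0, 0.93 and 0.66 FPKM in Saline_Vehicle. The other Tapbp locus reached at most 0.90 FPKM and the H2-K1 locus at most 1.75 FPKM, both in Saline_GR159897 replicate 3.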
